A study of Homo sapiens with 6 samples.

Results

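Amino acid transporters were taken as the protein-coding genes of the count table whose symbols fall in 7 solute carrier families: SLC1A, SLC3A, SLC6A, SLC7A, SLC36A, SLC38A and SLC43A. The rule uses symbols and gene types only and finds 51 of the 31831 genes listed. RNA-seq was performed in 3 libraries per group on HK-2, an immortalized human cell line from the epithelium of the renal proximal tubule. Both groups were cultured with 30 mM glucose for 72 h. The HG-NC group carried the control vector without the hnRNP-F insert, and the HG-OE group carried a lentiviral vector that overexpresses hnRNP-F, an RNA-binding protein that acts in splicing. Each group rests on 1 cell line. The study's results name 3 biological replicates, while its methods describe parallel wells of each group. The labels tie the 3 libraries of a group to no separate transductions, so the p-values below measure the spread between these libraries. Groups with mannitol were not analysed here.

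Amino acids carry charges and cross membranes through carriers. SLC1A, SLC6A, SLC36A and SLC38A carriers couple amino acids to gradients of sodium or protons. Many SLC7A carriers are exchangers that reach the cell surface bound to a glycoprotein of the SLC3A family, and the SLC7A1 to SLC7A3 branch carries cationic amino acids without such a partner. SLC43A carriers are facilitative. In the proximal tubule, these carriers reclaim filtered amino acids at the apical membrane and pass them on to the blood. Some members carry other solutes, such as SLC6A8 (creatine), SLC6A6 (taurine) and SLC43A3 (purine nucleobases). The rule also takes in SLC7A6OS, which lies opposite SLC7A6 and is no transporter.

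Total counts ran from 25507595 to 29444841 per library. The overexpressed gene HNRNPF stood at 311 ± 7.23 CPM in HG-NC against 435 ± 14.9 CPM in HG-OE, where CPM is a gene's counts relative to the library's total, scaled by the TMM method. Each HG-OE library was above each HG-NC library, with a log2 fold change of 0.48 (adjusted p = 2.80e-07). Whether reads of the vector's insert were counted to HNRNPF is not stated, so this change may not give the full overexpression. Every level with an error is the mean ± SD of the 3 libraries of a group. HG-OE replicate 3 stood apart from the other libraries. On the second principal component of log2 CPM it lay at 34.25, against -19.34 and -19.63 for the other HG-OE libraries. The summed level of 20 liver markers was 278 to 288 CPM in HG-NC libraries, whereas HG-OE replicates 1, 2 and 3 had 468, 469 and 942 CPM. That of 16 listed markers of squamous epithelium was 71.6 to 77.4 CPM in HG-NC libraries, whereas HG-OE replicates 1, 2 and 3 had 179, 175 and 274 CPM. Of these squamous markers, 13 had at most 10 counts in each of the other libraries, and 11 of the 13 had more than 10 in HG-OE replicate 3. Single genes did not follow the sums. Without that library, 2 of 6 tested liver markers were higher and 1 was lower at an adjusted p under 0.05 (median log2 fold change -0.45). Of 3 squamous markers, 1 was higher and 0 were lower (median 0.02), against 26.7% and 27.2% of all genes. Both lists were chosen knowing that earlier results showed such genes in HG-OE replicate 3. The part of this library's other RNA in a member's value was not tested, and values without the library are given beside the members it moved most. Summed fibroblast and mesenchymal markers were also higher in every HG-OE library (845 to 853 CPM in HG-NC, 1461 to 1610 CPM in HG-OE), as were epithelial markers (1034 to 1056 and 1360 to 1990 CPM). Summed proximal tubule markers were lower (661 to 713 and 488 to 531 CPM), but single genes did not follow these sums. At an adjusted p under 0.05, 3 of 9 tested proximal tubule markers were higher and 2 were lower. Their median log2 fold change was 0.21. Of 5 tested epithelial markers, 3 were higher and 2 were lower, and of 6 fibroblast and mesenchymal markers 2 were higher and 0 were lower. Among all genes tested, 25.9% were higher and 25.9% were lower. The part of these markers in the results was not tested. Of 19 listed proximal tubule markers, 9 had at most 10 counts in every library other than HG-OE replicate 3. Among these were LRP2 (megalin), AQP1 and HNF4A, the last with 323 counts in HG-OE replicate 3 and 0 elsewhere. PAX8, SLC4A4, PDZK1 and GATM were detected in every library, and the epithelial keratins KRT8 and KRT18 had at least 5216 counts in each. Of the 6 listed epithelial markers, 1 had at most 10 counts in every library other than HG-OE replicate 3.

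Of the 51 transporter genes, 37 had enough counts to be tested. At an adjusted p under 0.05 and any fold, 8 were higher in HG-OE (21.6%) and 13 were lower (35.1%), and the other 16 did not pass. In such bulk libraries, fewer cells of a kind and less RNA per cell cannot be told apart. Among all 17142 genes tested, 25.9% were higher and 25.9% were lower. Of the 13692 protein-coding genes among them, the type of every member, 3874 were higher and 4103 were lower. At 2-fold as well, 435 and 265 of these protein-coding genes were higher and lower. With at least a 2-fold change as well, 2 members were higher and 1 was lower, or 5.41% and 2.70% of those tested, against 3.69% and 2.13% of all genes. Both members called 2-fold higher were under the filter's cutoff of 0.352 CPM in every HG-NC library and entered the test only through HG-OE, so their count supports nothing. The median log2 fold change of the tested members was -0.01, against 0.01 for all genes tested. Most changes were small: 15 of the 21 called members changed by less than 1.5-fold. The values of the libraries did not overlap between the groups for 8 members higher and 15 lower in HG-OE, against 29.6% and 29.4% of all genes tested. SLC6A20 and SLC7A10, the members that entered the test only through HG-OE, are among the 8 higher at any fold. They are also among the 8 higher without overlap, and neither count gains support from them.

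**Figure D1:**
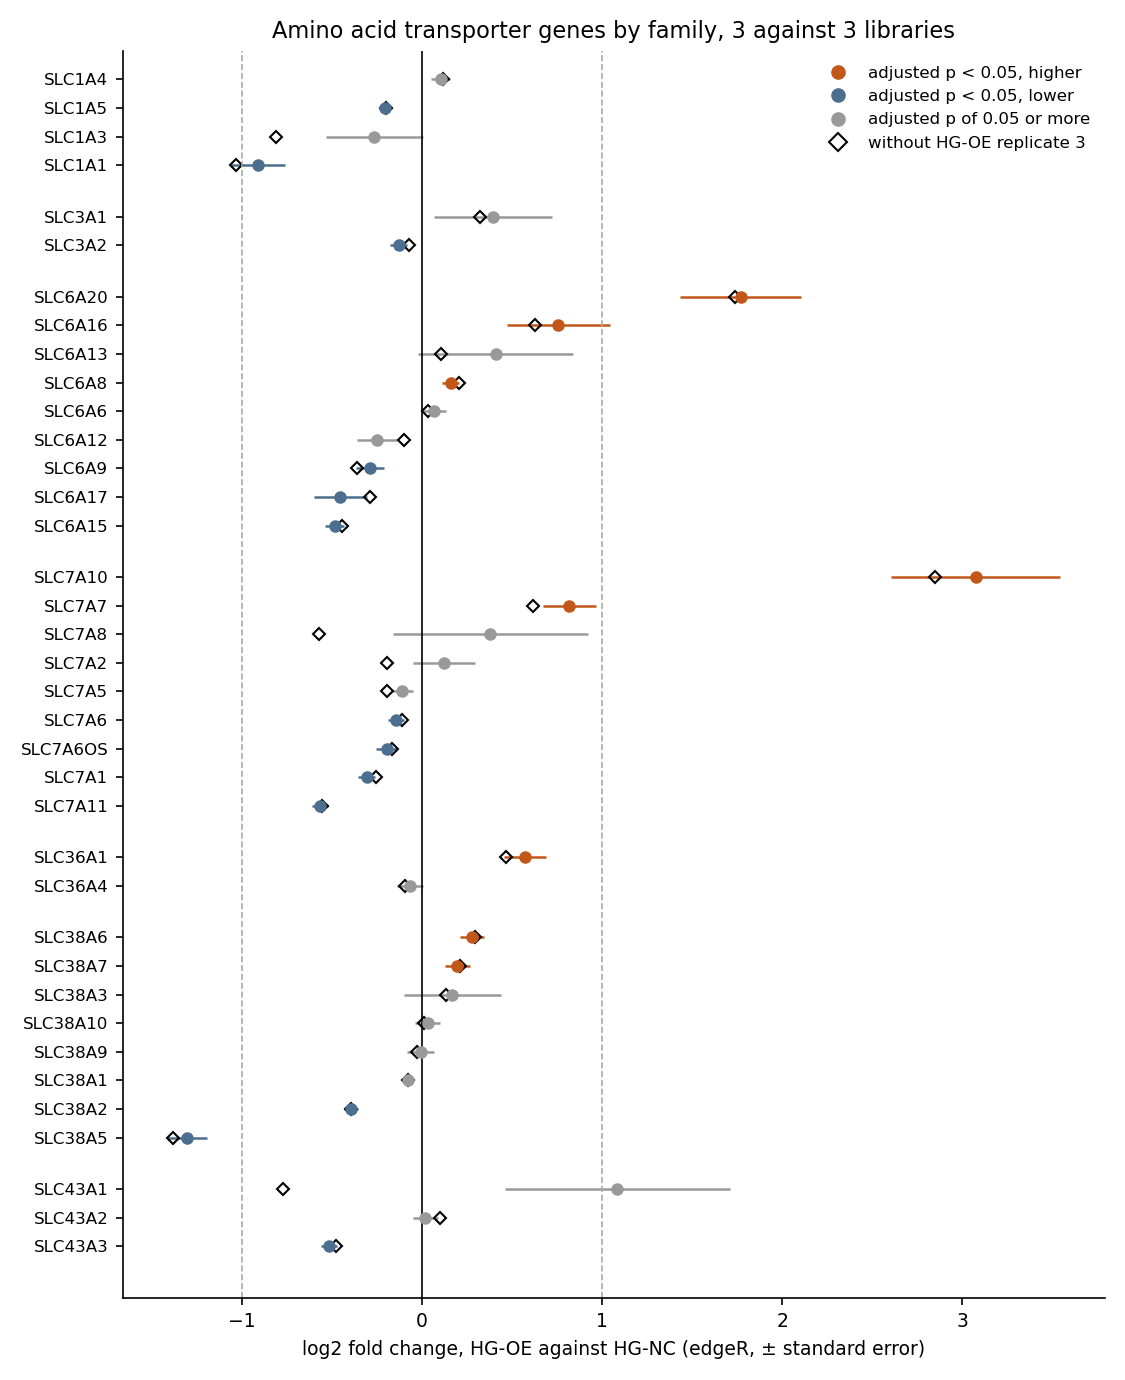
Log2 fold change of HG-OE against HG-NC on the x axis for the 37 tested members, ordered by family on the y axis. Filled points with bars are the estimates of edgeR with their standard errors, open diamonds are the estimates without HG-OE replicate 3, and dashed lines mark a 2-fold change. SLC7A10 at 3.07 and SLC6A20 at 1.77 lie farthest to the right, SLC38A5 at -1.30 lies farthest to the left, and the open diamond of SLC43A1 lies on the other side of 0 from its filled point.

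By family, none of the 4 tested SLC1A genes was higher and 2 were lower, with a median log2 fold change of -0.23. Of the 2 SLC3A genes, 1 was lower. Of the 9 tested SLC6A genes, 3 were higher and 3 were lower. The higher ones include SLC6A20, which entered the test only through HG-OE and could be called in that direction alone. Of the 9 tested SLC7A genes, 2 were higher, SLC7A10 with the same limit among them, and 4 were lower, with a median of -0.11. In SLC36A, 1 of 2 genes was higher. Of the 8 tested SLC38A genes, 2 were higher and 2 were lower, and of the 3 SLC43A genes 1 was lower. Among all genes tested, 25.9% were higher and 25.9% were lower. These families hold few genes, and the counts describe them without a test of the family.

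Levels of different genes were compared per length, as FPKM, the authors' counts divided by gene length and library size. Summed over all listed members other than SLC7A6OS, FPKM came to 483 ± 5.66 in HG-NC and 421 ± 2.66 in HG-OE and thus decreased by 12.9%. The sum of SLC43A fell by 26.6%, that of SLC38A fell by 15.9% and that of SLC1A fell by 13.3%. That of SLC7A, here with SLC7A6OS included, fell by 11.4%, and that of SLC3A fell by 9.58%. The sum of SLC6A differed by 0.642%, and that of SLC36A was 10.1% higher. The sums are a description without a test, and each is set by its most abundant members. The 10 genes with the highest FPKM held 86.6% to 88.6% of the total of all listed members, SLC7A6OS included, in every library. Of these 10 genes, 6 were lower in HG-OE, 1 was higher and 3 did not pass. The other 27 tested members split into 7 higher, SLC6A20 and SLC7A10 among them, 7 lower and 13 that did not pass. Beside 25.9% higher and 25.9% lower among all genes tested, these counts are a description only. Other genes of like abundance were not compared.

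**Figure D2:**
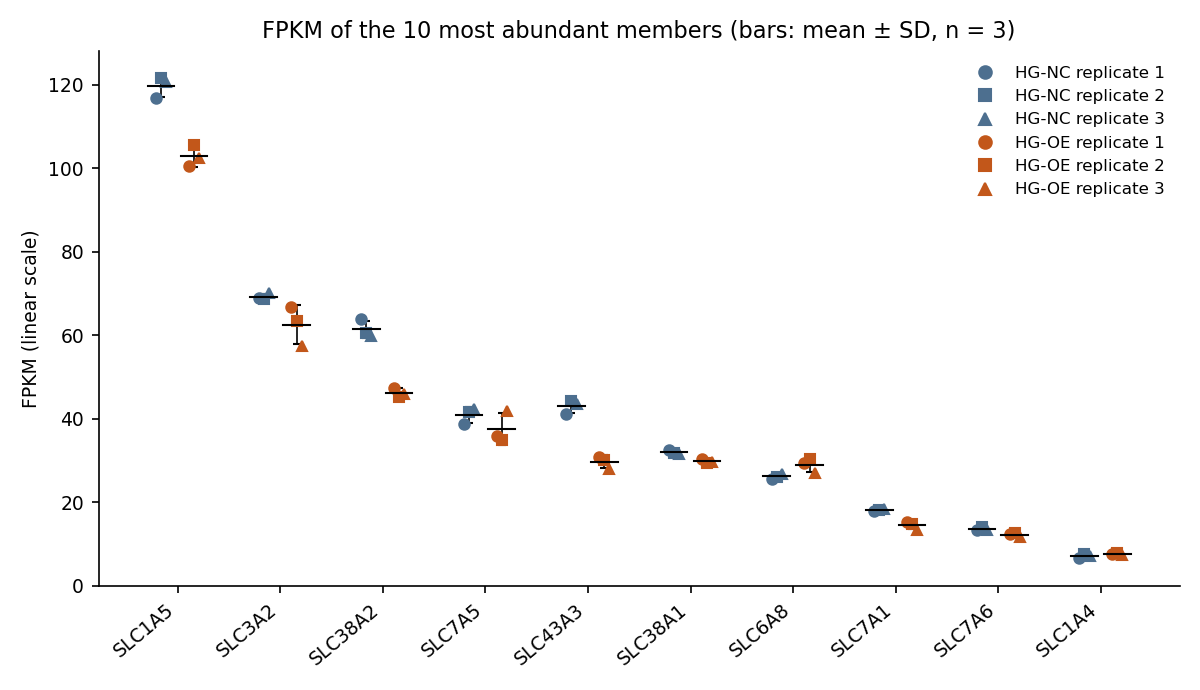
FPKM on a linear y axis for the 10 members with the highest mean FPKM, with 1 point per library and the mean ± SD of each group. SLC1A5, SLC38A2, SLC43A3, SLC7A1, SLC7A6 and SLC3A2 have all their HG-OE points below their HG-NC points, as has SLC38A1 without passing the test, and SLC6A8 has them above.

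Glutamine and other neutral amino acids enter cells through SLC1A5 (ASCT2), an exchanger, and through the sodium-coupled SLC38A1 and SLC38A2 (SNAT1 and SNAT2). SLC1A5 (ENSG00000105281.12, GRCh38 chromosome 19 from 46774883 to 46788594, minus strand) was the most abundant member, at 117, 122 and 121 FPKM in HG-NC replicates 1 to 3 and 101, 106 and 103 FPKM in HG-OE replicates 1 to 3. Every HG-OE library lay below every HG-NC library. HG-OE stood at a log2 fold change of -0.20 ± 0.0375 (SE is its standard error, and the adjusted p was 0.000459 by edgeR's quasi-likelihood test, used throughout). Well-counted genes nearby on the chromosome, within 10 Mb, had a median of -0.09, and -0.11 remains for SLC1A5 once it is subtracted.

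SLC38A2, which is induced when amino acids are scarce (chromosome 12, 46358188 to 46372773), had 63.8, 60.6 and 60.0 FPKM in HG-NC and 47.4, 45.2 and 46.0 FPKM in HG-OE. The groups did not overlap, and the log2 fold change was -0.40 ± 0.0385 (SE, adjusted p = 1.68e-06). SLC38A1, its neighbour on the same chromosome and strand (46183063 to 46270017), had 32.6, 31.8 and 31.5 FPKM in HG-NC and 30.5, 29.6 and 29.8 FPKM in HG-OE. Its log2 fold change of -0.08 ± 0.0356 (SE) did not pass with edgeR (adjusted p = 0.0757) and passed with DESeq2 (adjusted p = 0.0377). SLC1A4 (ASCT1), an exchanger of alanine, serine and cysteine, had 6.80, 7.71 and 7.12 FPKM in HG-NC and 7.64, 7.84 and 7.52 FPKM in HG-OE. Its groups overlapped, with a log2 fold change of 0.10 (adjusted p = 0.118), which passes without HG-NC replicate 2 (0.16, adjusted p = 0.0313).

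SLC7A1 (CAT-1), the widely expressed carrier of arginine, lysine and ornithine (chromosome 13, 29509414 to 29595688), had 18.0, 18.2 and 18.6 FPKM in HG-NC and 15.4, 14.9 and 13.5 FPKM in HG-OE. All HG-OE values were lower, with a log2 fold change of -0.31 ± 0.0471 (SE, adjusted p = 9.95e-05). SLC7A2, a cationic carrier that is inducible in many cells, had a log2 fold change of 0.12 (adjusted p = 0.579). Its counts of 298, 305 and 324 in HG-NC and 300, 285 and 513 in HG-OE were highest in HG-OE replicate 3, without which it was at -0.20 (adjusted p = 0.0982).

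SLC43A3 (ENSG00000134802.18, chromosome 11, 57406954 to 57427580) had the largest fall among the 10 most abundant members. It had 41.2, 44.4 and 43.7 FPKM in HG-NC and 31.0, 30.3 and 28.1 FPKM in HG-OE, with a log2 fold change of -0.52 ± 0.0455 (SE, adjusted p = 6.61e-07). An unnamed gene on the same strand, ENSG00000254979, shares 1349 exonic bases with it and had 5066, 5603 and 5920 counts in HG-NC and 4429, 4535 and 3881 counts in HG-OE. Reads on the shared bases cannot be told apart. SLC43A2 (LAT4), a carrier of branched-chain amino acids, methionine and phenylalanine, had a log2 fold change of 0.02 (adjusted p = 0.840).

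SLC6A8 was the one abundant member that was higher, with 25.6, 26.2 and 26.9 FPKM in HG-NC and 29.5, 30.4 and 27.0 FPKM in HG-OE. It imports creatine with sodium and chloride, and lies on chromosome X from 153687926 to 153696588. The highest HG-NC library and the lowest HG-OE library nearly met. Its log2 fold change was 0.16 ± 0.047 (SE, adjusted p = 0.0118), and the call is lost without HG-OE replicate 2 (adjusted p = 0.0655). Its 58 neighbours had a median of 0.26, so that SLC6A8 stands at -0.10 once this is subtracted.

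Cells short of amino acids raise several transporter genes through the transcription factor ATF4, which binds composite C/EBP-ATF elements. The letters TGATGNAA of that element were searched on both strands in promoter windows of RefSeq on GRCh38.p14, each from 250 bases before to 50 bases after a start. Windows were given for 40 of the 51 members, 61 in all. Of these, 6 windows of 6 members held the letters (9.84%), against 2.69% of the 22199 windows of all protein-coding genes. They are shown because they cover SLC1A4, SLC1A5, SLC3A2, SLC38A1 and SLC7A1 of the most abundant members. Each line gives 30 bases on the strand of the gene, 5′ to 3′, with the match in capitals, so that a match on the other strand reads as its reverse complement.
SLC1A5 (chr19:46784893-46784922, minus strand): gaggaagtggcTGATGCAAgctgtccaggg
SLC3A2 (chr11:62881719-62881748, plus strand): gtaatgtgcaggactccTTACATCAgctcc
SLC7A1 (chr13:29595663-29595692, minus strand): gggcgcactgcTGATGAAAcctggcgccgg
SLC38A1 (chr12:46266502-46266531, minus strand): tcagacccgaaTGATGAAAagggatcagct
SLC1A4 (chr2:64989381-64989410, plus strand): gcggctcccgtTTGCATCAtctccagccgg
SLC1A3 (chr5:36596357-36596386, plus strand): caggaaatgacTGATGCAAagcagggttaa

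Of the 6 genes with a match, SLC1A5, SLC3A2 and SLC7A1 were lower in HG-OE, and SLC38A1, SLC1A4 and SLC1A3 did not pass the test. Beside the 25.9% of all genes that were lower, so few genes are a description only. The core letters of the antioxidant response element, TGACNNNGC, were found in 7 of the 61 windows (11.5%), against 13.8% of all windows. The 7 genes were SLC1A3, SLC1A5, SLC3A2, SLC7A1, SLC7A5, SLC7A6 and SLC7A7. A match is a run of letters and not a measured binding site. SLC7A11, SLC43A3, SLC6A15 and SLC3A1 were among the members without a window and were not searched.

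Heteromeric transporters pair a heavy chain of SLC3A with a light chain of SLC7A. SLC3A2 (4F2hc, CD98) is the heavy chain of SLC7A5, SLC7A6, SLC7A7, SLC7A8, SLC7A10 and SLC7A11. SLC3A1 (rBAT) is the heavy chain of SLC7A9, with which it takes up cystine and cationic amino acids at the apical membrane of the proximal tubule.

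SLC3A2 (ENSG00000168003.18, chromosome 11, 62856004 to 62888880) had 69.0, 68.7 and 70.1 FPKM in HG-NC and 66.8, 63.5 and 57.5 FPKM in HG-OE. The groups did not overlap, but the lowest value, that of HG-OE replicate 3, was well below those of the other HG-OE libraries. The change was small, at a log2 fold change of -0.13 ± 0.0472 (SE, adjusted p = 0.0328). Without HG-OE replicate 3 it was -0.07 (adjusted p = 0.0728), and the call is also lost without HG-NC replicate 1, 2 or 3 (adjusted p = 0.0837, 0.0769 and 0.108).

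SLC7A5 (LAT1), which exchanges large neutral amino acids such as leucine for glutamine, was the most abundant light chain. It had 38.9, 41.6 and 42.5 FPKM in HG-NC and 35.9, 35.0 and 41.9 FPKM in HG-OE, and HG-OE replicate 3 lay among the HG-NC values. The log2 fold change of -0.11 did not pass (adjusted p = 0.148). Without that library it was -0.19 (adjusted p = 4.86e-05).

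SLC7A11 (xCT) exchanges extracellular cystine for glutamate and supplies cysteine for glutathione. It had 6.26, 6.11 and 6.25 FPKM in HG-NC and 4.28, 4.06 and 4.10 FPKM in HG-OE, a gap many times the spread within either group. The log2 fold change was -0.57 ± 0.0458 (SE, adjusted p = 3.01e-07) and ranged from -0.59 to -0.56 when single libraries were omitted. The gene lies on chromosome 4 (138164097 to 138242349), where its 35 neighbours had a median of -0.41, and -0.16 remains once that is subtracted.

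SLC7A7 and SLC7A6 (y+LAT1 and y+LAT2) exchange cationic for neutral amino acids, and SLC7A7 does so at the basolateral side of the proximal tubule. SLC7A7 (chromosome 14, 22773222 to 22829820) had 188, 182 and 237 counts in HG-NC and 350, 322 and 491 counts in HG-OE, or 7.53 ± 0.886 CPM and 13.3 ± 3.05 CPM. It was 1.76-fold higher, with a log2 fold change of 0.82 ± 0.147 (SE, adjusted p = 0.000366), and 0.62 without HG-OE replicate 3 (adjusted p = 4.49e-06). SLC7A6 had 13.4, 14.1 and 13.5 FPKM in HG-NC and 12.4, 12.6 and 11.7 FPKM in HG-OE, with a log2 fold change of -0.14 ± 0.0437 (SE, adjusted p = 0.0135). That call is lost without HG-NC replicate 2 (adjusted p = 0.0667). SLC7A6OS shares 3372 exonic bases with SLC7A6 on the other strand and was also lower, at -0.20 (adjusted p = 0.0114, and 0.0524 without HG-NC replicate 3). Whether the counting used strand is not stated, so reads of these 2 genes may be mixed.

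SLC7A10 (Asc-1), an exchanger of small neutral amino acids and D-serine, had 2, 2 and 3 counts in HG-NC and 17, 21 and 29 counts in HG-OE. The groups did not overlap, and the log2 fold change was 3.07 ± 0.469 (SE, adjusted p = 9.51e-05). As the gene passed the filter on low counts only through the HG-OE libraries, it could be called in that direction alone. Its adjusted p and its lack of overlap are thus no support for a difference. The ratio of its summed counts per total count was 8.78 (HG-OE over HG-NC). The exact binomial 95% interval of 4.03 to 22.7 covers counting error only and not this selection. LRP3 overlaps it on the other strand by 201 exonic bases (chromosome 19, SLC7A10 at 33208664 to 33225850) and had 190, 219 and 284 counts in HG-NC and 401, 402 and 690 counts in HG-OE. Without strand in the counting, reads from the shared bases could be LRP3 RNA, which was not tested.

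SLC7A8 (LAT2), the basolateral carrier of neutral amino acids in the proximal tubule, had 15, 7 and 11 counts in HG-NC and 9, 7 and 31 counts in HG-OE. Its log2 fold change was 0.38 (adjusted p = 0.583), and -0.57 without HG-OE replicate 3 (adjusted p = 0.376). SLC7A9 (b0,+AT), the apical light chain, had 0 to 2 counts in every library. Its heavy chain SLC3A1 had 11, 13 and 18 counts in HG-NC and 16, 22 and 22 counts in HG-OE, with a log2 fold change of 0.40 (adjusted p = 0.336). PREPL overlaps SLC3A1 on the other strand by 1923 exonic bases and had 1048 to 1256 counts per library. An unnamed gene on the same strand, ENSG00000285542, shares 1761 exonic bases with SLC3A1. It had 14, 13 and 32 counts in HG-NC and 21, 14 and 23 counts in HG-OE, and reads on the shared bases cannot be told apart. In the deposited counts, with this limit for SLC3A1, both subunits of the apical cystine carrier were at 22 counts or fewer in every library.

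The FPKM of SLC3A2 divided by the summed FPKM of its 6 light chains was 1.15, 1.09 and 1.10 in HG-NC and 1.22, 1.18 and 0.943 in HG-OE. HG-OE replicates 1 and 2 lay above the HG-NC range and replicate 3 below it.

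**Figure D3:**
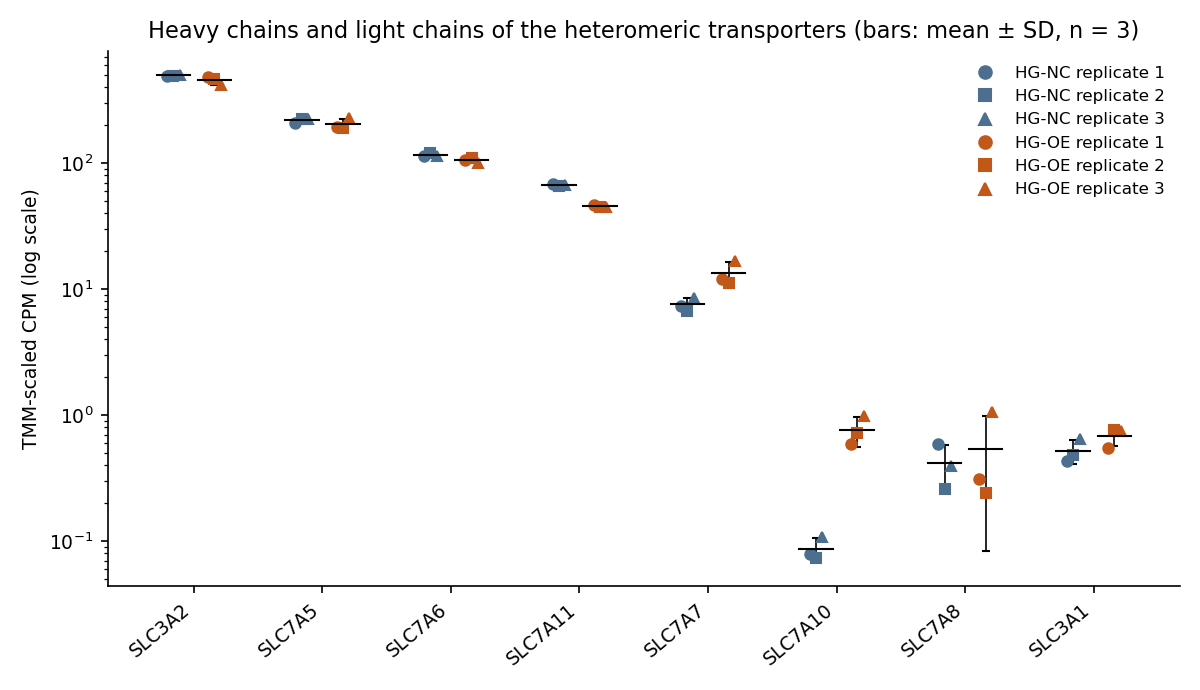
TMM-scaled CPM on a log y axis for the heavy chains SLC3A2 and SLC3A1 and 6 light chains, with 1 point per library and the mean ± SD of each group. SLC7A11 is lower and SLC7A7 and SLC7A10 are higher in every HG-OE library, and SLC7A5 and SLC7A8 show HG-OE replicate 3 away from replicates 1 and 2.

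SLC1A1 (EAAC1, EAAT3), the sodium-coupled carrier of glutamate and aspartate in kidney epithelium, had the largest fall in its family. Its counts were 159, 168 and 163 in HG-NC and 97, 76 and 110 in HG-OE, or 6.10 ± 0.231 CPM and 3.24 ± 0.580 CPM. All HG-OE values were lower, by 1.88-fold in the fit, with a log2 fold change of -0.91 ± 0.151 (SE, adjusted p = 0.000188; chromosome 9, 4490468 to 4587469). Without HG-OE replicate 3 it was -1.03. SLC1A3 (EAAT1, GLAST), a glutamate carrier best known in glia, had 115, 128 and 124 counts in HG-NC and 78, 73 and 181 counts in HG-OE. Its log2 fold change of -0.27 did not pass (adjusted p = 0.434), and without HG-OE replicate 3 it was -0.81 (adjusted p = 5.15e-05).

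Members of SLC6A that passed the test moved in both directions. SLC6A15 (B0AT2), a carrier of branched-chain amino acids and proline, had 119, 114 and 118 CPM in HG-NC and 91.0, 81.0 and 78.6 CPM in HG-OE. The groups were well apart, with a log2 fold change of -0.48 ± 0.0526 (SE, adjusted p = 4.46e-06), and -0.30 remains once the median of -0.18 of its neighbours is subtracted. SLC6A9 (GlyT1), the glycine carrier, was lower, falling from 21.2 ± 0.819 to 17.4 ± 1.5 CPM (log2 fold change -0.29, adjusted p = 0.00683). SLC6A17 (NTT4), a vesicular carrier of neutral amino acids in neurons, was at 7.66 ± 0.30 and 5.60 ± 1.22 CPM (-0.45, adjusted p = 0.0198), and at -0.29 without HG-OE replicate 3. Its call is lost without HG-NC replicate 1 or 3 (adjusted p = 0.0755 and 0.0565). SLC6A16, an orphan carrier, had 17 to 22 counts in HG-NC and 27 to 42 counts in HG-OE (0.76, adjusted p = 0.0400). Its call is lost without HG-NC replicate 2 or 3 and without HG-OE replicate 1 or 3, at adjusted p = 0.0948, 0.125, 0.103 and 0.115. It is also lost with DESeq2 (0.179), with the replicate number as a block (0.0586) and without the filter on low counts (0.101).

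SLC6A20 (SIT1), an apical carrier of proline and other imino acids in kidney and intestine, was low in all libraries. It had 6, 8 and 9 counts in HG-NC and 33, 23 and 30 counts in HG-OE. As it passed the filter on low counts only through the HG-OE libraries, it could be called in that direction alone. It was 3.41-fold higher, with a log2 fold change of 1.77 ± 0.338 (SE, adjusted p = 0.000600). It lies on chromosome 3 (45755449 to 45796574), where its 171 neighbours had a median of 0.53, so that 1.24 remains after its subtraction. Carriers of osmolytes did not pass. SLC6A6, the taurine carrier, was at 23.0 ± 0.712 and 24.1 ± 1.08 CPM in HG-NC and HG-OE (adjusted p = 0.391). SLC6A12 (BGT1), the carrier of betaine, was at 22.3 ± 0.757 and 18.7 ± 3.48 CPM (log2 fold change -0.25, adjusted p = 0.0708), with its lowest value, 14.7 CPM, in HG-OE replicate 3. Without HG-OE replicate 1 or 2 SLC6A12 passes at adjusted p = 0.0367 and 0.0378, and without replicate 3 it stands at -0.10 (adjusted p = 0.261).

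SLC36A1 (PAT1), a proton-coupled carrier of small amino acids on lysosomes and at the cell surface, had 153, 173 and 175 counts in HG-NC and 242, 259 and 309 counts in HG-OE. All HG-OE values were higher, with a log2 fold change of 0.57 ± 0.116 (SE, adjusted p = 0.000913). Its neighbours on chromosome 5 (SLC36A1 at 151437046 to 151492379) had a median of 0.37, and 0.21 remains after subtraction. SLC36A4, the other tested gene of the family, was at 20.2 ± 0.191 and 19.3 ± 1.31 CPM, a log2 fold change of -0.07 (adjusted p = 0.454).

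SLC38A5 (SN2, SNAT5), which moves glutamine, histidine and asparagine with sodium in exchange for protons, was the member called lower by 2-fold. Its counts were 299, 315 and 311 in HG-NC and 128, 128 and 151 in HG-OE, or 11.5 ± 0.336 CPM and 4.65 ± 0.434 CPM. The groups were far apart relative to their spread, and the level in HG-NC was 2.47-fold that in HG-OE. The log2 fold change was -1.30 ± 0.109 (SE, adjusted p = 3.93e-07), and from -1.38 to -1.27 when single libraries were omitted. It lies on chromosome X (48458537 to 48470260), and its neighbours had a median of 0.11.

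SLC38A6, a little studied member of the same family, had 470, 541 and 567 counts in HG-NC and 703, 693 and 680 counts in HG-OE. It rose, with a log2 fold change of 0.28 ± 0.0661 (SE, adjusted p = 0.00304; chromosome 14, 60981114 to 61114316). SLC38A7 (SNAT7), a lysosomal carrier of glutamine and asparagine, also rose, at 0.20 (adjusted p = 0.0290), a call that is lost without HG-NC replicate 1 or HG-OE replicate 2 (adjusted p = 0.104 and 0.114), with DESeq2 (0.112) or without the filter on low counts (0.0755). SLC38A9, the lysosomal arginine sensor of mTORC1, had a log2 fold change of -0.01 (adjusted p = 0.942). SLC38A10 was at 0.03 (adjusted p = 0.741), and SLC38A3 (SN1, SNAT3), the system N carrier of proximal tubule and liver, had 21 to 33 counts in every library (0.17, adjusted p = 0.628).

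SLC43A1 (LAT3), a facilitative carrier of branched-chain amino acids, was set apart by HG-OE replicate 3. Its counts were 97, 93 and 77 in HG-NC, 54 and 59 in HG-OE replicates 1 and 2, and 507 in HG-OE replicate 3. The log2 fold change over all libraries was 1.09 ± 0.625 (SE, adjusted p = 0.164). Without that library it was -0.77 (adjusted p = 0.000928), and without HG-OE replicate 1 or 2 it was 1.54 and 1.53 (adjusted p = 0.0328 and 0.0393).

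Further members stood high in that one library. SLC6A19 (B0AT1), the main apical carrier of neutral amino acids in kidney and intestine, had 100 counts there and 0 in every other library. SLC6A14 (ATB0,+), a broad carrier of neutral and cationic amino acids, had 61 counts and SLC6A11 (GAT3), a GABA carrier, had 15, and both had 0 counts in the other 5 libraries. By counting error alone, 0 counts in a library leave room for up to 3. SLC38A4 (SNAT4), a liver carrier, had 30 counts in HG-OE replicate 3 and 5 to 9 counts elsewhere. The CPM of this library over the higher of the other HG-OE libraries was 8.54 for SLC43A1, 3.41 for SLC7A8, 3.30 for SLC38A4, 2.30 for SLC1A3 and 1.69 for SLC7A2. Without the library, 7 members were higher and 15 were lower (26.7% and 27.2% of all genes). At 2-fold 2 were higher, again SLC6A20 and SLC7A10, and 2 were lower, SLC1A1 joining SLC38A5 (3.60% and 2.63% of all genes).

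**Figure D4:**
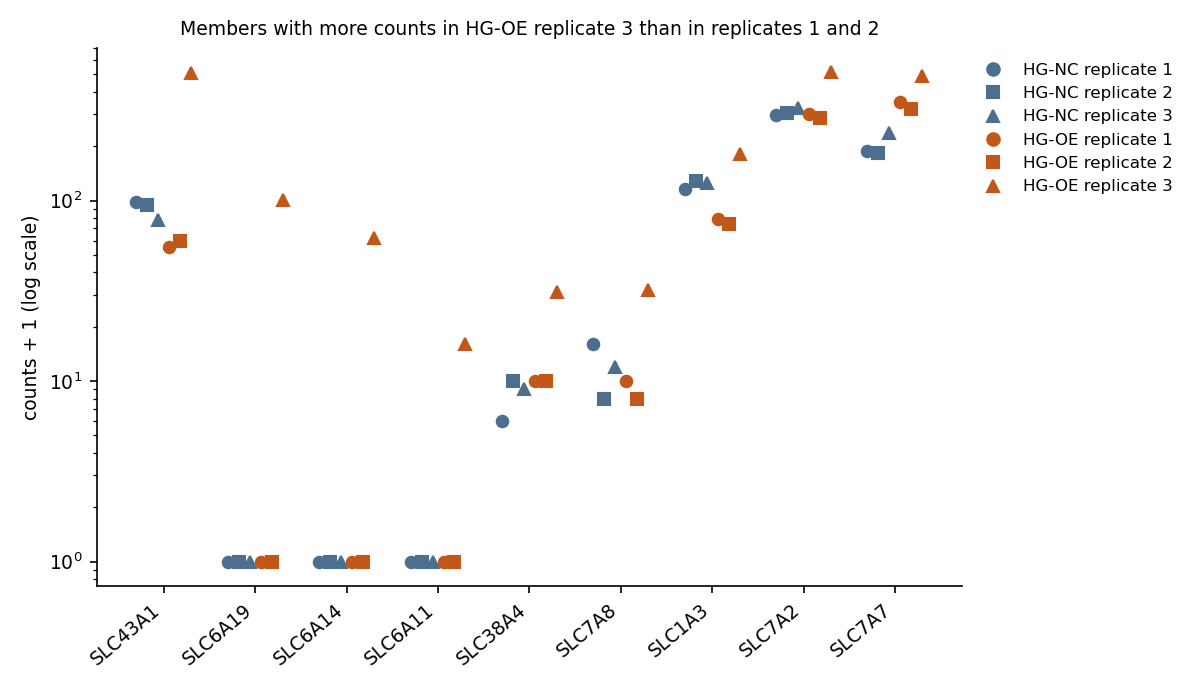
Counts plus 1 on a log y axis for 9 members chosen after their values were seen, with 1 point per library. HG-OE replicate 3 is the highest point of each gene, with 507 counts for SLC43A1, 100 for SLC6A19 and 61 for SLC6A14.

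The 14 untested members were SLC6A19, SLC6A14, SLC6A11 and SLC38A4, described above, and 10 genes with at most 10 counts in every library. The latter included SLC1A2 (EAAT2, the main glutamate carrier of astrocytes), SLC1A7, SLC6A4 (the serotonin carrier), SLC6A7, SLC6A18, SLC7A4, SLC7A9, SLC7A14 and SLC38A11. A difference in these genes was not detectable at this depth. SLC6A13 (GAT2), tested at 6 to 18 counts per library, had a log2 fold change of 0.41 (adjusted p = 0.450), and 0.11 without HG-OE replicate 3.

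Beside 25.9% higher and 25.9% lower of all genes tested, 7 lists written from general knowledge described the rest of amino acid supply. The first, carriers outside these families, had 17 genes tested, of which 7 were higher and 3 were lower, with a median log2 fold change of 0.04 (1 lower without HG-NC replicate 2). Its largest rises were in the mitochondrial carriers SLC25A29 (basic amino acids, 0.56, adjusted p = 3.28e-06) and SFXN3 (serine, 0.52, adjusted p = 1.69e-06). Among proteins that bind the transporters or act on their trafficking, 3 of 9 were higher and 2 were lower, with a median of -0.01. The scaffold PDZK1 rose from 7.51 ± 1.06 to 13.4 ± 0.409 CPM (log2 fold change 0.84, adjusted p = 2.12e-05). SGK1, a kinase that raises the surface level of several carriers, fell from 257 ± 7.30 to 148 ± 6.54 CPM (-0.80, adjusted p = 8.57e-09). CD44, which binds xCT, fell from 728 ± 4.25 to 560 ± 21.9 CPM (-0.38, adjusted p = 1.84e-06).

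In the amino acid response, by which uncharged tRNA leads through GCN2 to ATF4, 4 of 16 genes were higher and 6 were lower, with a median of 0.002. ATF4 itself rose from 448 ± 6.39 to 652 ± 19.6 CPM (log2 fold change 0.54, adjusted p = 6.16e-08). Its neighbours on chromosome 22 had a median of 0.30. STC2, a secreted glycoprotein, rose by 0.39 on the log2 scale (adjusted p = 4.20e-06), against a neighbour median of 0.47. PPP1R15A, the regulatory subunit that directs dephosphorylation of eIF2, fell from 353 ± 10.3 to 188 ± 17.3 CPM (-0.91, adjusted p = 2.73e-08), and ATF3 from 90.9 ± 0.317 to 49.7 ± 6.82 CPM (-0.87, adjusted p = 4.13e-07). ATF4 and STC2 thus rose while PPP1R15A and ATF3 fell, and a part of ATF4 in the levels of the transporters was not tested.

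Of 23 tested genes of amino acid synthesis and breakdown, 4 were higher and 8 were lower, with a median of -0.09. Without HG-OE replicate 3, 5 were higher and 12 were lower, against 26.7% and 27.2% of all genes. GLUL, which makes glutamine, was higher (0.35, adjusted p = 0.000145), as was PHGDH, the first enzyme of serine synthesis (0.30, adjusted p = 2.37e-05). The mitochondrial folate enzyme MTHFD2 was lower (-0.49, adjusted p = 2.35e-07), with a neighbour median of -0.27 on chromosome 2.

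Lysosomal amino acid sensing to mTORC1 had 34 genes tested, of which 13 were higher and 6 were lower, with a median of 0.05. The arginine sensor CASTOR1 (0.72, adjusted p = 7.27e-05) and the small GTPase RRAGA (0.67, adjusted p = 1.78e-07) rose. FLCN, which activates RRAGC and RRAGD (-0.51, adjusted p = 4.85e-05), and MIOS, a subunit of GATOR2 (-0.39, adjusted p = 0.000946), fell.

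Of 20 cytosolic tRNA synthetases, 5 were higher and 3 were lower (5 without HG-OE replicate 3), with a median of -0.02. QARS1, which loads glutamine, rose from 61.1 ± 0.703 to 115 ± 5.70 CPM (0.91, adjusted p = 4.46e-09). It lies on chromosome 3, where its neighbours had a median of 0.51. HARS1, which loads histidine, rose by 0.68 on the log2 scale (adjusted p = 5.85e-08), with a neighbour median of 0.30. FARSA (phenylalanine) fell by 0.26 (adjusted p = 0.000445).

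The use of cystine for glutathione, which lies downstream of SLC7A11, had 12 genes tested, 4 higher and 3 lower, with a median of 0.03. OPLAH, which opens the ring of pyroglutamate, rose from 2.05 ± 0.0996 to 3.85 ± 1.47 CPM (0.91, adjusted p = 0.00587, and 0.56 without HG-OE replicate 3). GSR, which reduces oxidized glutathione, rose (0.43, adjusted p = 1.36e-05). CHAC2, which breaks down glutathione, fell (-0.78, adjusted p = 8.04e-05). NFE2L2 (NRF2), a transcription factor that drives SLC7A11, fell from 221 ± 4.65 to 148 ± 7.40 CPM (-0.57, adjusted p = 1.63e-07), with a neighbour median of -0.31.

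**Figure D5:**
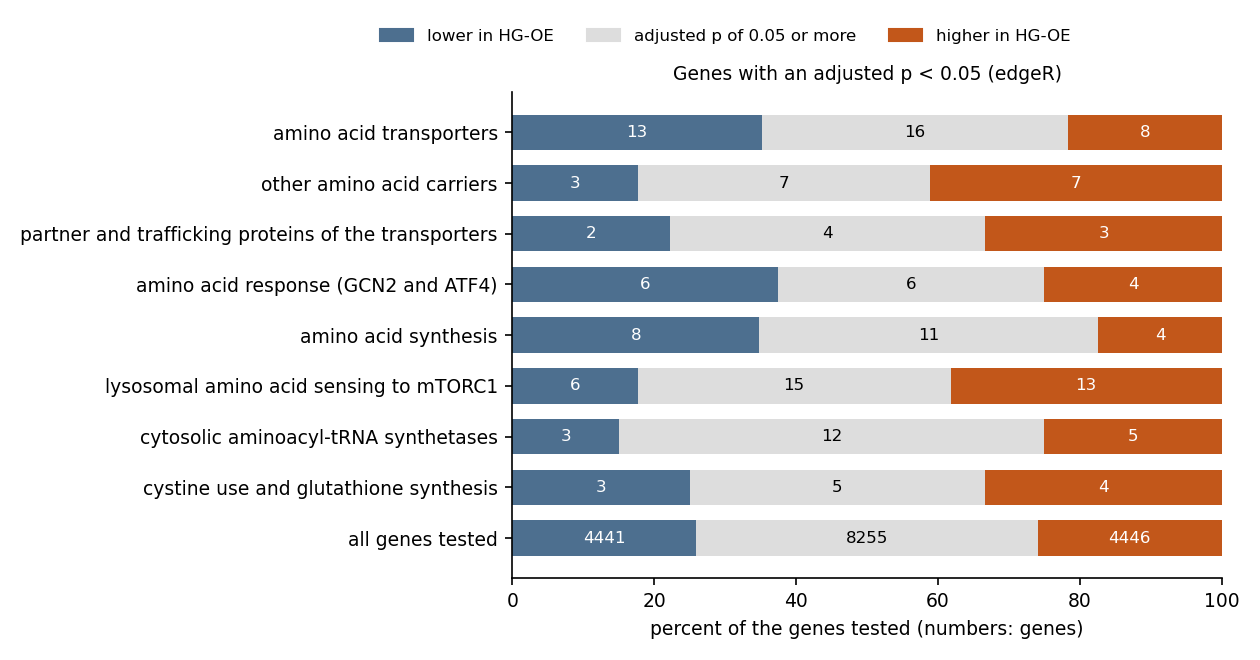
Percent of the tested genes that were lower, did not pass or were higher at an adjusted p under 0.05, for the transporters, the 7 lists and all genes tested, with numbers of genes in the bars. The transporters show 13 lower and 8 higher of 37, sensing to mTORC1 shows 6 lower and 13 higher of 34, and all genes show 4441 lower and 4446 higher of 17142.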

How the data were processed

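Poly(A) RNA of HK-2 cells was sequenced as 150-nt pairs from a directional kit. After trimming, the authors mapped reads to GRCh38 by HISAT2 and deposited counts of uniquely mapped reads per gene, without normalization. The counting tool, its annotation and its strand setting are not given in the sources used here. The authors also deposited FPKM values, rounded, for 50 of the 51 members. ComBat_seq is named for batches that are not described, and no batch term could be fitted.

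All 31831 genes entered edgeR 4.0.16 (R 4.3.3) with its default filter on low counts, TMM scaling and the quasi-likelihood test of HG-OE against HG-NC. P-values were adjusted by Benjamini-Hochberg over 17142 genes. An exact permutation test of 3 against 3 libraries cannot go below p = 0.1. Neighbours are the genes with a mean of at least 100 counts within 10 Mb, by GENCODE positions. Alternatives used DESeq2 1.42.0 and limma 3.58.1. The steps were tested on simulated data. Limits for 0 counts cover counting error only.

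Values in every library were given for members called at 2-fold, the 10 with the highest FPKM, the family extremes among called members with a mean of at least 100 counts, and the subunits of heteromers. From each list at most 2 rises and 2 falls were named, the largest, and some genes under these rules are not reported here. Other values were chosen after they were seen. The members and lists were chosen with earlier results of these data known.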

Additional observations from a re-analysis of the deposited data

How the results depend on the processing

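Of 543 log2 fold changes of members under 15 alternatives, 482 kept their direction and their side of the threshold, 35 lost the call, 13 gained one and 13 turned direction. Of the 37 members, 17 kept both throughout. With the median of the neighbours removed, a step that was not tested anew, SLC6A8 turned to -0.10, SLC6A6 to -0.35, SLC38A3 to -0.34 and SLC38A9 to 0.22. Without HG-OE replicate 3, SLC43A1, SLC7A2 and SLC7A8 turned. With each library left out in turn, SLC43A1 ran from -0.77 to 1.54, SLC7A2 from -0.20 to 0.27 and SLC7A8 from -0.57 to 0.73. The other turns were of values near 0 that passed no test, with ranges of -0.056 to 0.057 for SLC38A9, -0.042 to 0.10 for SLC38A10 and -0.046 to 0.098 for SLC43A2. SLC38A9 stood at 6.6e-05 with at least 10 counts in every library, and SLC43A2 at -0.00070 with limma on log2(FPKM + 0.1). The count called 2-fold higher, 2, was 5 without a filter on low counts, where SLC6A11, SLC6A14 and SLC6A19 joined through 1 library, and 0 with at least 10 counts in every library, a filter that drops both genes. With limma it was 0 on log2(FPKM + 1), 1 on log2(FPKM + 0.1) and 0 without a filter on FPKM. That filter drops SLC6A20, which stood at 0.12 without it, and SLC7A10 stood at 0.25 and 1.35 with the larger and the smaller pseudocount. The count called 2-fold lower, 1, was 0 with limma on log2(FPKM + 1), with and without that filter, and 2 without HG-OE replicate 3. At any fold, 8 were higher in the main analysis and 4, 4 and 5 in these limma settings in the same order. With each library left out, counts ran from 2 to 3 and from 1 to 2 at 2-fold and from 7 to 8 and from 10 to 15 at any fold, higher and lower. With the replicate number as a replicate block, 7 were higher and 14 lower at any fold and 2 and 1 at 2-fold. Deviations of same-numbered libraries correlated at -0.027, 0.030 and -0.00099. These values show no sign of pairing by number, which so few libraries cannot exclude.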
